A study of Mus musculus with 8 samples.

Results

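Genes of ribosome biogenesis, most of them known targets of the transcription factor Myc, were examined in mouse basal cell carcinoma cells that had or had not been exposed to the Hedgehog pathway inhibitor vismodegib. The list holds 36 genes taken by name, and 33 of them had a probe set that maps to that gene alone. The list was chosen with earlier results of these data known, which bears on every comparison of its counts with all genes. These 33 all passed the filter on low signal and are described here, out of 14403 genes tested. Mybbp1a, Gnl3 and Tsr1 had no such probe set and carry no value here. RNA was measured on 8 Affymetrix mouse arrays, 1 for each sorted population of each of 4 mice. All mice carried K14-CreER/Ptch1cKO, a deletion of the Hedgehog receptor gene Ptch1 by an inducible Cre that the keratin 14 promoter drives in basal epidermal cells, and their back skin bore tumours or, per the labels' protocols, lesions that tolerated the drug. From the skin of each mouse, living cells with Lrig1 on their surface, a marker of upper follicle progenitors, were sorted by an Lgr5-GFP reporter, which marks hair follicle stem cells. The groups were Lgr5-positive cells of vismodegib-treated mice, Lgr5-positive cells of untreated mice, Lgr5-negative cells of vismodegib-treated mice and Lgr5-negative cells of untreated mice, with n = 2 mice in each. The labels give no dose, duration or age, and no marker that would exclude leukocytes from the sort. Values are log2 signals as the authors normalised them, and a difference is called when its adjusted p, by Benjamini and Hochberg over all 14403 genes of a limma model, is under 0.05.

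Ribosomes are assembled in the nucleolus. RNA polymerase I copies the ribosomal RNA precursor, small nucleolar ribonucleoproteins modify it and guide its cleavage, and large sets of assembly factors fold and trim it into the small and the large subunit. Myc drives many of these genes together with Odc1 and Srm, enzymes that make polyamines, so that ribosome production rises with growth. Basal cell carcinoma depends on Hedgehog signalling through Smoothened, the protein that vismodegib blocks.

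Untreated Lgr5-positive cells had the lowest levels of the list. For each gene, its mean over the 8 arrays was subtracted, and the median of the 33 deviations was then taken per array. It was 0.13 and 0.11 in the vismodegib Lgr5-positive arrays, against −0.40 and −0.23 in the untreated Lgr5-positive arrays. In the Lgr5-negative cells it was 0.18 and 0.06 with vismodegib and 0.05 and 0.15 without. Over all genes tested the same median stayed between −0.02 and 0.02 in every array. The untreated Lgr5-positive group thus stood below the other 3 groups, whose arrays overlapped. In 22 of the 33 genes both untreated Lgr5-positive arrays were below the 6 others, a pattern looked up after the values were seen that held for 14.2% of all genes. The 11 genes without this pattern were Ncl, Nop10, Rrp9, Rrp1b, Wdr12, Wdr74, Pes1, Polr1c, Ppan, Nip7 and Nop14. The mean of the untreated Lgr5-positive group was the lowest of the 4 in 27 genes, against 30.1% of all genes. In a bulk sample, fewer cells with a high level and less RNA per cell cannot be told apart, and the between-array normalisation makes every level relative to the rest of the RNA on the array.

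**Figure D1:**
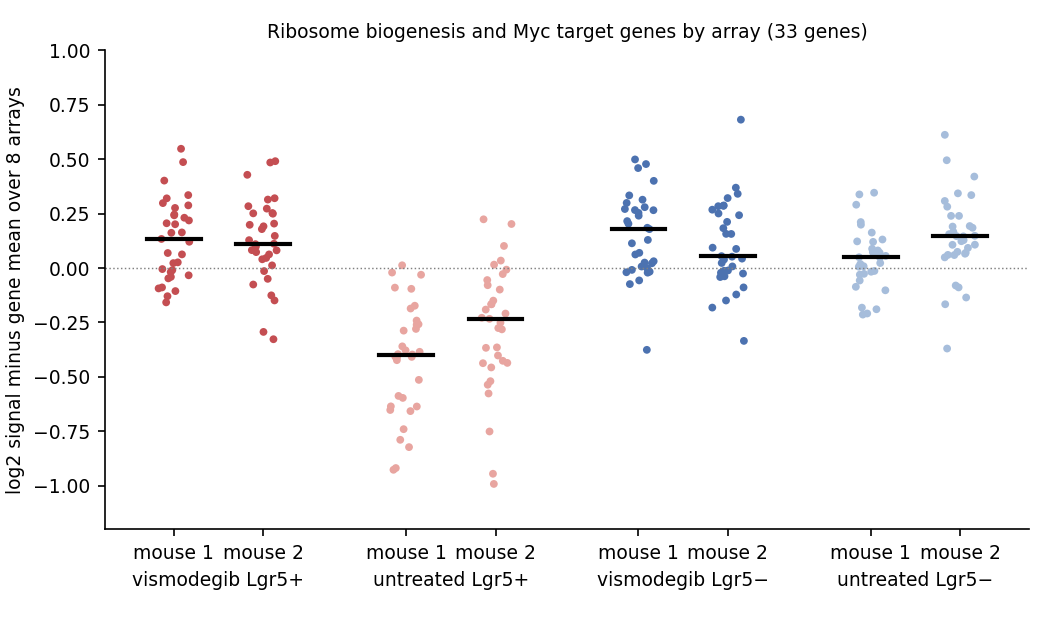
Each point is 1 of the 33 genes on 1 array, as its log2 signal minus that gene's mean over the 8 arrays, and the black bars are array medians. The medians of both untreated Lgr5-positive arrays, −0.40 and −0.23, lie below those of the other 6 arrays, which run between 0.05 and 0.18.

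The labels and the known biology of the population were checked first. Lgr5 had log2 signals of 9.44 and 10.03 in Lgr5-positive cells, against 5.46 and 4.83 in Lgr5-negative cells, of vismodegib-treated mice. In untreated mice it had 10.98 and 11.00 in Lgr5-positive cells, against 8.52 and 8.40 in Lgr5-negative cells, and the sort itself set these differences. Gli1, a target of the Hedgehog pathway, was lower with vismodegib by a log2 fold change of −3.52 in Lgr5-positive and −2.44 in Lgr5-negative cells, both called. All 11 tested keratinocyte markers, such as Krt5, Krt14 and Trp63, had a log2 signal of at least 9.44 on every array. Macrophage and dendritic cell markers were also present and unequal. The log2 of their summed signal over 20 genes was 13.98 and 13.76 in vismodegib Lgr5-positive cells, against 11.19 and 11.00 in untreated Lgr5-positive cells. It was 13.68 and 13.57 in vismodegib Lgr5-negative cells, against 12.57 and 12.89 in untreated Lgr5-negative cells. With vismodegib in Lgr5-positive cells 17 of the 20 were called higher, against 6.37% of all genes. In untreated Lgr5-positive cells 9 were called lower than in Lgr5-negative ones, against 10.9%. These markers were thus lowest in the group where the ribosome biogenesis genes were lowest. Fibroblast markers ran the other way. The log2 of their summed signal over 9 genes was 10.89 and 11.43 in vismodegib Lgr5-positive cells, against 12.13 and 12.27 in untreated Lgr5-positive cells, and 10.09 and 10.79 in vismodegib Lgr5-negative cells, against 11.55 and 11.42 in untreated Lgr5-negative cells. All 9 were above 0 for untreated Lgr5-positive over Lgr5-negative cells, with a median of 0.57, and 3 were called higher (Col6a1, Sparc and Col1a1), against 6.21% of all genes. With vismodegib in Lgr5-positive cells 2 of the 9 were called lower, against 4.51% of all genes. Mast cell and neutrophil markers, over 6 genes, summed to 9.38 and 9.20 in vismodegib Lgr5-positive cells, against 9.50 and 10.72 in untreated Lgr5-positive cells, and to 9.78 and 9.09 in vismodegib Lgr5-negative cells, against 11.75 and 12.43 in untreated Lgr5-negative cells. Their genes did not move as a set. For untreated Lgr5-positive over Lgr5-negative cells 4 of the 6 were above 0, with a median of 0.04. There 2 were called lower, against 10.9% of all genes. For vismodegib in Lgr5-negative cells 3 of the 6 were above 0, with a median of −0.02, and 2 were called lower, against 2.06%. The part of all these markers in the results below was not tested.

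The promoters of the list were read from RefSeq (GRCm38.p6), 250 bases before to 50 bases after each annotated start, and 31 of the 36 genes matched with 35 promoters. Srm, Npm1, Fbl, Rrs1 and Bop1 had no entry and no sequence is shown for them. The E-box CACGTG, which Myc binds and which reads the same on both strands, stood in 5 of the 35 promoters (14.3%), against 7.84% of the promoters of protein-coding genes in the same windows. Upstream of the start it stood in 0 of the 35, against 6.63%. All 5 copies lay after the start, in Pes1, Utp20, Wdr43 and the unmeasured Mybbp1a and Tsr1. The sites of the 3 measured genes are shown with the E-box in capitals, at chr11:3963965-3963994 on the plus strand for Pes1, chr10:88826765-88826794 on the minus strand for Utp20 and chr17:71616220-71616249 on the plus strand for Wdr43.
Pes1: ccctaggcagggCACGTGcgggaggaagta
Utp20: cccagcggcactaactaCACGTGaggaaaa
Wdr43: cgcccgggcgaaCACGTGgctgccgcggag
The E-box began 3, 38 and 18 bases after the start in this order. After CACGTG was not found upstream, 4 other motifs were searched, each with its reverse complement. These were CACGCG (a non-canonical E-box), CCGGAAG (bound by the ETS family), GGGCGG (bound by the Sp family) and CCAAT (bound by NF-Y). CACGCG stood in 14 of the 35 promoters (40.0%), against 12.1% of protein-coding promoters, and upstream of the start in 7 (20.0%), against 9.99%. CCGGAAG stood in 11 (31.4%), against 11.6%, GGGCGG in 23 (65.7%), against 46.2%, and CCAAT in 9 (25.7%), against 38.2%. The member promoters had a median GC content of 58.0% and 21 CpG sites per promoter, against 56.3% and 13 in protein-coding promoters. Every motif searched, the E-box included, holds a CpG except CCAAT. The shares were not adjusted for CpG number, and matches of different motifs that share bases were all counted. The 250 upstream bases of 4 genes called in a comparison that hold CACGCG there are shown, read on the strand of the gene with this motif in capitals in either direction. They lie at chr12:17544623-17544872 (plus) for Odc1, chr17:47611493-47611742 (minus) for Bysl, chr8:107056627-107056876 (plus) for Nip7 and chr19:46075597-46075846 (plus) for Nolc1.
Odc1: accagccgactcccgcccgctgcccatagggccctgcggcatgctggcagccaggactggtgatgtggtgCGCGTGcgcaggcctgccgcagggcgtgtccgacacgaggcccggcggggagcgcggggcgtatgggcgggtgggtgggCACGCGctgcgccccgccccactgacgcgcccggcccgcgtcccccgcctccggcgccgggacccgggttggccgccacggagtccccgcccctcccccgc
Bysl: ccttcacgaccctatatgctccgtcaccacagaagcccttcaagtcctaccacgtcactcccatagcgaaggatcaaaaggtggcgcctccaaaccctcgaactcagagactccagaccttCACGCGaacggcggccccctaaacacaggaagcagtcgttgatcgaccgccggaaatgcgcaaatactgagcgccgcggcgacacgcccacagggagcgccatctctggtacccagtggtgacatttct
Nip7: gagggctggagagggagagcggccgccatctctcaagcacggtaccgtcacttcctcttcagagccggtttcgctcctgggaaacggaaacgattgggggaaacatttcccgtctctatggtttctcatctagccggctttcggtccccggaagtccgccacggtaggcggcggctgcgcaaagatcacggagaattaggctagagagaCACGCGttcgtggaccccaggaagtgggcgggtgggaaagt
Nolc1: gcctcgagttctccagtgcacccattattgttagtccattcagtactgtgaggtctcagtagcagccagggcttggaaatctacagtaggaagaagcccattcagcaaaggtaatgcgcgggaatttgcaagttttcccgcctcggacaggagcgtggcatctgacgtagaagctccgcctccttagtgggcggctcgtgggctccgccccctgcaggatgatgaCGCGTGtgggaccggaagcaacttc
The motif began 180 and 101 bases before the start in Odc1, 129 in Bysl, 41 in Nip7 and 25 in Nolc1. The upstream window of Heatr1, the gene with the largest change after vismodegib on the list, holds CCGGAAG 16 bases before the start. It lies at chr13:12395125-12395374 on the plus strand and is shown with that motif in capitals.
Heatr1: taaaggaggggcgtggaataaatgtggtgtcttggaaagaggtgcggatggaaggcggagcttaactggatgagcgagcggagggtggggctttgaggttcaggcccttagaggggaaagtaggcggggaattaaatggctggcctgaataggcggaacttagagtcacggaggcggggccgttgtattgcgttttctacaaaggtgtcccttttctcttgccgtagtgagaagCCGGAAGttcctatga
These are matches of letters. No binding was measured, and genes with and without a match are not compared here.

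The first question was what vismodegib changed in Lgr5-positive cells. There 13 of the 33 genes were called higher with vismodegib, against 6.37% of all genes tested, and 0 were called lower by limma, against 4.51%, and 0 at an unadjusted p under 0.05. They were Heatr1, Odc1, Polr1b, Rrs1, Bysl, Nop16, Wdr43, Dkc1, Noc2l, Ddx21, Nip7, Nop58 and Nolc1. The median log2 fold change of the 33 was 0.43, a 1.35-fold level, against −0.006 over all genes, and 30 of the 33 were above 0. The 2 groups did not overlap in 28 genes with vismodegib higher, against 27.9% of all genes, and in 2 with vismodegib lower, against 26.9%. Without the vismodegib Lgr5-positive array of mouse 1 the calls fell to 2, Heatr1 and Odc1. With each array left out in turn, these 2 alone of the 13 kept their call every time. The calls fell to 4 without the vismodegib Lgr5-positive array of mouse 2 and to 6 without the untreated Lgr5-positive array of mouse 1, and the median stayed between 0.32 and 0.54 whichever array was left out.

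In untreated mice, 12 of the 33 genes were called lower in Lgr5-positive than in Lgr5-negative cells, against 10.9% of all genes, and 0 were called higher by limma, against 6.21%, and 0 at an unadjusted p under 0.05. The 12 were Odc1, Nhp2, Heatr1, Ddx21, Rrs1, Polr1b, Dkc1, Noc2l, Nop16, Nob1, Nip7 and Gar1. The median log2 fold change of the 33 was −0.38, against 0.02 over all genes, and 30 were below 0. Arrays of the 2 populations did not overlap in 25 genes with Lgr5-positive cells lower, against 31.2% of all genes, and in 1 with them higher, against 33.4%. This comparison and the preceding one share the untreated Lgr5-positive arrays, so their values are not independent of each other. Without the untreated Lgr5-negative array of mouse 2 the calls fell to 3, namely Odc1, Heatr1 and Ddx21, and without that of mouse 1 to 7.

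The 2 remaining comparisons showed no called gene of the list. In Lgr5-negative cells, vismodegib left the median at 0.03, against 0.005 over all genes, and 0 of the 33 were called by limma, against 1.26% of all genes higher and 2.06% lower. At an unadjusted p under 0.05 there were 5, namely Rrp1b, Heatr1 and Polr1b with higher and Ddx21 and Nip7 with lower values. Groups did not overlap in 10 genes with vismodegib higher, against 26.5% of all genes, and in 8 with vismodegib lower, against 24.9%, close to the background. Between Lgr5-positive and Lgr5-negative cells of vismodegib-treated mice the median was −0.04, against −0.009, and again 0 were called, against 0.34% of all genes higher and 0.132% lower. Here 3 genes had an unadjusted p under 0.05, Nip7 and Wdr43 with higher and Wdr12 with lower values in Lgr5-positive cells. The populations were apart in 7 genes with Lgr5-positive cells higher, against 21.2% of all genes, and in 7 with them lower, against 22.5%. In this limma model the effect of vismodegib differed between the populations for 3 genes, Heatr1, Odc1 and Ddx21, against 0.993% of all genes in that direction, and for 0 in the other, against 0.41%, with 0 there at an unadjusted p under 0.05. No gene of the list kept this call with every array left out in turn. The count was 0 without either vismodegib Lgr5-positive array, without either untreated Lgr5-negative array and without the vismodegib Lgr5-negative array of mouse 2, and the median stayed between 0.30 and 0.44.

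**Figure D2:**
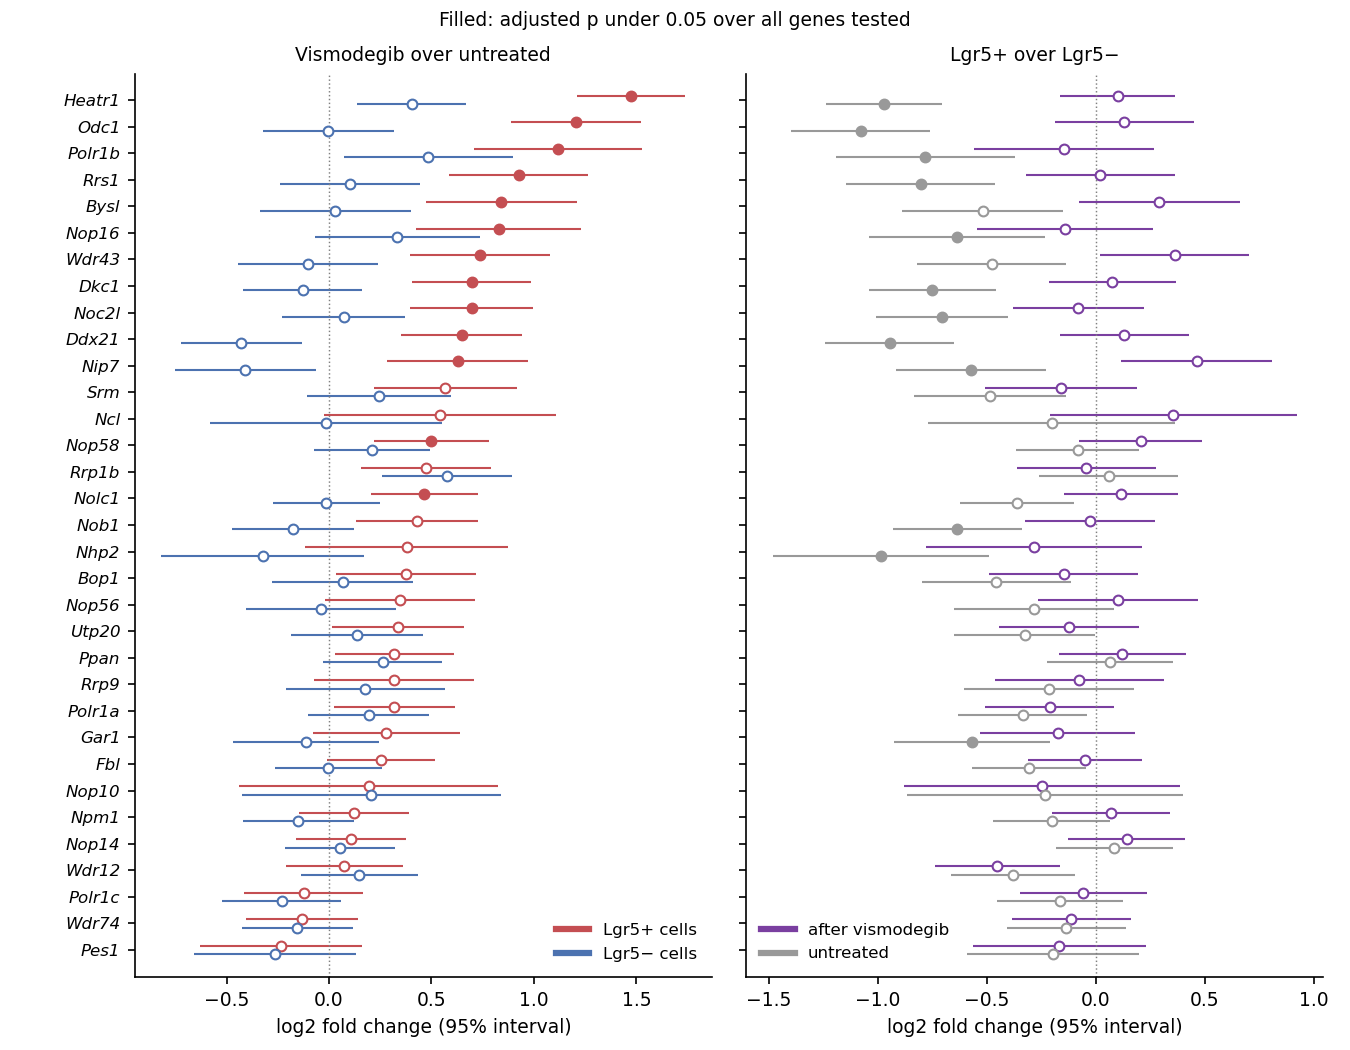
The log2 fold change of each of the 33 genes with its 95% interval, vismodegib over untreated cells on the left and Lgr5-positive over Lgr5-negative cells on the right, ordered by the vismodegib effect in Lgr5-positive cells. Filled points are called, 13 for vismodegib in Lgr5-positive cells, 12 for untreated populations and 0 in the other 2 comparisons.

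Among small subunit factors, 3 of 7 tested were called higher with vismodegib in Lgr5-positive cells, against 6.37% of all genes. Between untreated populations 2 of 7 were called lower in Lgr5-positive than Lgr5-negative cells, against 10.9%. Heatr1, whose yeast counterpart Utp10 acts early in precursor transcription and cleavage, had log2 signals of 8.72 and 8.67 in vismodegib Lgr5-positive cells, against 7.26 and 7.18 in untreated Lgr5-positive cells. In Lgr5-negative cells they were 8.67 and 8.52 with vismodegib, against 8.16 and 8.22 without. Both untreated Lgr5-positive arrays were well below the rest, and the groups did not overlap in either population. The log2 fold change of vismodegib was 1.48 ± 0.11 (SE) in Lgr5-positive cells, or 2.78-fold, with an adjusted p of 0.000468, the largest on the list by the probe set used for each gene, and it was called in all 20 alternatives. In Lgr5-negative cells it was 0.40 ± 0.11 with an adjusted p of 0.111. The difference between these effects was 1.07 ± 0.16, with an adjusted p of 0.0305. The untreated populations differed by −0.97 ± 0.11, with an adjusted p of 0.00238, and those of treated mice by 0.10, with a 95% interval of −0.17 to 0.37. The sizes differed between the probe sets of Heatr1, in a limma fit of every probe set. One other gave 0.67 for vismodegib in Lgr5-positive cells (adjusted p = 0.018) and −0.49 for the untreated populations (adjusted p = 0.042), and its difference between the effects, 0.31, was not called (adjusted p = 0.438). The remaining one gave 1.40 for vismodegib in Lgr5-positive cells (adjusted p = 0.0129), −0.89 for the untreated populations (adjusted p = 0.0503) and 1.15 for the difference between the effects (adjusted p = 0.166).

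Bysl, counterpart of yeast Enp1 in small subunit export, had log2 signals of 8.51 and 8.64 in vismodegib Lgr5-positive cells, against 7.62 and 7.84 in untreated Lgr5-positive cells. In Lgr5-negative cells it had 8.48 and 8.09 with vismodegib, against 8.22 and 8.28 without, so that there the groups overlapped. Its change in Lgr5-positive cells was 0.84 ± 0.16, with an adjusted p of 0.016. Wdr43, part of the same early complex as Heatr1, had 10.24 and 9.95 in vismodegib Lgr5-positive cells, against 9.50 and 9.22 in untreated Lgr5-positive cells, a change of 0.74 ± 0.15 with an adjusted p of 0.0196. Its Lgr5-negative arrays lay between both groups, at 9.73 and 9.73 with vismodegib and 9.81 and 9.86 without. Nob1, the nuclease that makes the last cut of the small subunit RNA, stood at 7.32 and 7.28 in untreated Lgr5-positive cells, against 7.88 and 7.99 in untreated Lgr5-negative cells. That population difference was −0.64 ± 0.13, with an adjusted p of 0.016. With vismodegib, Nob1 had 7.71 and 7.75 in Lgr5-positive and 7.62 and 7.89 in Lgr5-negative cells, and its 0.43 change in Lgr5-positive cells had an adjusted p of 0.0746. Utp20, Rrp9 and Nop14 were called in no comparison, with changes in Lgr5-positive cells of 0.34, 0.32 and 0.11.

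Large subunit factors held 4 of 10 genes called higher with vismodegib in Lgr5-positive cells, against 6.37% of all genes. They held 4 of 10 called lower in untreated Lgr5-positive than Lgr5-negative cells, against 10.9%. Rrs1, which yeast needs to build the large subunit, had log2 signals of 10.96 and 11.06 in vismodegib Lgr5-positive cells, against 10.00 and 10.16 in untreated Lgr5-positive cells. The Lgr5-negative cells had 11.14 and 10.84 with vismodegib, against 10.79 and 10.98 without. The untreated Lgr5-positive arrays were the lowest pair by far, with a vismodegib change of 0.93 ± 0.15 (adjusted p = 0.00807) and a population difference in untreated mice of −0.80 ± 0.15 (adjusted p = 0.0111). Its probe set is of a type that can bind related transcripts, and its other probe set gave 1.39 and −1.34 for these comparisons.

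Noc2l, whose yeast counterpart Noc2 travels with early large subunit precursors, had log2 signals of 8.60 and 8.49 in vismodegib Lgr5-positive cells, against 7.74 and 7.96 in untreated Lgr5-positive cells, and 8.57 and 8.68 in vismodegib Lgr5-negative cells, against 8.48 and 8.63 in untreated ones. It changed by 0.70 ± 0.13 with vismodegib in Lgr5-positive cells (adjusted p = 0.0152), and its untreated populations differed by −0.71 ± 0.13 (adjusted p = 0.0112). A second probe set of Noc2l gave a population difference of 0.06, and over the mean of its probe sets the gene was not called (adjusted p = 0.232). Nop16, a Myc target in human cells, had 9.15 and 9.36 in vismodegib Lgr5-positive cells, against 8.24 and 8.61 in untreated Lgr5-positive cells. It had 9.51 and 9.28 in vismodegib Lgr5-negative cells, against 8.93 and 9.19 in untreated ones. The groups were apart in both populations, and the change was 0.83 ± 0.17 in Lgr5-positive cells (adjusted p = 0.0235) and 0.33 in Lgr5-negative cells, which was not called.

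Nip7, an RNA-binding assembly factor, had log2 signals of 9.47 and 9.40 in vismodegib Lgr5-positive cells, against 8.74 and 8.88 in untreated Lgr5-positive cells, and 9.13 and 8.82 in vismodegib Lgr5-negative cells, against 9.27 and 9.49 in untreated ones. Its arrays did not overlap in either population, with opposite order. The change was 0.63 ± 0.15 in Lgr5-positive cells (adjusted p = 0.0356) and −0.41 in Lgr5-negative cells (adjusted p = 0.193), and the difference between them, 1.04 ± 0.21, had an adjusted p of 0.0653. Pes1, Bop1 and Wdr12 form the complex that processes large subunit RNA, and none of the 3 was called. Pes1 had 9.05 and 8.81 in vismodegib Lgr5-positive cells, against 8.96 and 9.36 in untreated Lgr5-positive cells, with overlap. Bop1 had 9.52 and 9.61 in vismodegib Lgr5-positive cells, against 9.14 and 9.25 in untreated Lgr5-positive cells, a log2 fold change of 0.38. Wdr12 overlapped, with 7.96 and 7.72 in vismodegib Lgr5-positive cells, against 7.75 and 7.78 in untreated Lgr5-positive cells. Rrp1b, a nucleolar protein of the large subunit pathway, had 8.44 and 8.37 in vismodegib Lgr5-positive cells, against 7.78 and 8.09 in untreated Lgr5-positive cells, and 8.47 and 8.44 in vismodegib Lgr5-negative cells, against 7.96 and 7.80 in untreated ones. It was higher on every vismodegib array than on every untreated array, with changes of 0.47 (adjusted p = 0.070) and 0.58 (adjusted p = 0.0692). Without either one of the untreated Lgr5-positive arrays in the model, the Lgr5-negative change passed (adjusted p = 0.0496). Ppan and Wdr74 were called in no comparison.

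The box H/ACA particle turns uridines of the ribosomal RNA into pseudouridines. The genes of 3 of its 4 proteins were called lower in untreated Lgr5-positive than Lgr5-negative cells, against 10.9% of all genes. With vismodegib in Lgr5-positive cells 1 of 4 was called higher, against 6.37%. Dkc1, the enzyme of the particle, had log2 signals of 10.74 and 10.64 in vismodegib Lgr5-positive cells, against 9.99 and 9.99 in untreated Lgr5-positive cells. The Lgr5-negative cells had 10.53 and 10.69 with vismodegib, against 10.64 and 10.84 without. The untreated Lgr5-positive arrays alone were low, with a vismodegib change of 0.70 ± 0.13 (adjusted p = 0.0132) and an untreated population difference of −0.75 ± 0.13 (adjusted p = 0.00815). Nhp2 stood at 9.29 and 9.93 in untreated Lgr5-positive cells, against 10.46 and 10.73 in untreated Lgr5-negative cells, and these untreated Lgr5-positive mice lay further apart than the mice of any other group for this gene. The difference was −0.99 ± 0.21 (adjusted p = 0.0208). With vismodegib Nhp2 had 10.01 and 9.97 in Lgr5-positive and 10.39 and 10.16 in Lgr5-negative cells. Gar1 differed by −0.57 ± 0.15 between untreated populations (adjusted p = 0.0431, and 0.053 with the mouse as a block), and Nop10, with 9.74 and 10.58 in untreated Lgr5-positive cells, was called in no comparison. Nhp2 and Gar1 are read by probe sets that can also bind related transcripts.

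The box C/D particle methylates ribosomal RNA. Nop58, a core protein, had 10.84 and 10.82 in vismodegib Lgr5-positive cells, against 10.36 and 10.30 in untreated Lgr5-positive cells, a change of 0.50 ± 0.12 (adjusted p = 0.0393, and 0.0578 with the mouse number as a block). Its Lgr5-negative arrays had 10.74 and 10.51 with vismodegib, against 10.37 and 10.46 without. Both untreated Lgr5-positive arrays lay just below both untreated Lgr5-negative ones, and the difference of −0.08 was not called. Nop56 and Fbl, the other core protein and the methyltransferase, had log2 fold changes of 0.35 and 0.25 in Lgr5-positive cells and were not called. Of the nucleolar chaperones, Nolc1, which binds both kinds of particle, had 9.13 and 9.15 in vismodegib Lgr5-positive cells, against 8.59 and 8.76 in untreated Lgr5-positive cells. Its change of 0.46 ± 0.11 was called (adjusted p = 0.0391), and its Lgr5-negative arrays, between 8.99 and 9.06, showed no such gap. Ncl and Npm1 had log2 fold changes of 0.54 and 0.12 in Lgr5-positive cells, and neither was called. Npm1 had a log2 signal between 12.14 and 12.43 on all 8 arrays.

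Ddx21, an RNA helicase of the nucleolus, had log2 signals of 9.97 and 9.81 in vismodegib Lgr5-positive cells, against 9.17 and 9.31 in untreated Lgr5-positive cells. Lgr5-negative cells had 9.69 and 9.82 with vismodegib, against 10.10 and 10.26 without. On this probe set the groups did not overlap in either population and ran in opposite directions. The changes were 0.65 ± 0.13 in Lgr5-positive cells (adjusted p = 0.0188) and −0.43 in Lgr5-negative cells (adjusted p = 0.125). Their difference was 1.08 ± 0.18 (adjusted p = 0.0401, and 0.0514 with the mouse as a block). In untreated mice the populations differed by −0.94 ± 0.13 (adjusted p = 0.00378). The other probe set of Ddx21, in a limma fit of every probe set, gave 0.91 in Lgr5-positive cells (adjusted p = 0.0156) but 0.23 in Lgr5-negative cells, the opposite sign. Its difference between the effects was 0.68 and was not called (adjusted p = 0.218), and its untreated populations differed by −0.77 (adjusted p = 0.0237).

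Among the 3 subunits of RNA polymerase I on the list, 1 was called higher with vismodegib in Lgr5-positive cells, against 6.37% of all genes. The same 1 was called lower in untreated Lgr5-positive than Lgr5-negative cells, against 10.9%. Polr1b, a core subunit, had log2 signals of 7.81 and 7.66 in vismodegib Lgr5-positive cells, against 6.77 and 6.46 in untreated Lgr5-positive cells. In Lgr5-negative cells it had 7.67 and 8.09 with vismodegib, against 7.32 and 7.47 without. Untreated Lgr5-positive cells were lowest, the groups were apart in both populations, and the change was 1.12 ± 0.18 in Lgr5-positive cells (adjusted p = 0.00803) and 0.48 in Lgr5-negative cells (adjusted p = 0.196). The untreated populations differed by −0.78 ± 0.18 (adjusted p = 0.0245). Polr1a, the largest subunit, had a log2 fold change of 0.32 in Lgr5-positive cells, and Polr1c, which RNA polymerase III shares, of −0.12, and neither was called.

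Odc1, the rate-limiting enzyme of polyamine synthesis, had log2 signals of 9.16 and 9.40 in vismodegib Lgr5-positive cells, against 7.99 and 8.17 in untreated Lgr5-positive cells. In the Lgr5-negative population Odc1 had 9.23 and 9.07 with vismodegib, against 9.21 and 9.10 without. The untreated Lgr5-positive arrays were about a log2 unit below all 6 others, which overlapped. The change in Lgr5-positive cells was 1.21 ± 0.14, or 2.31-fold (adjusted p = 0.00199), and that in Lgr5-negative cells was −0.003, with a 95% interval of −0.32 to 0.32. The difference between the effects was 1.21 ± 0.19 (adjusted p = 0.0362, and 0.0536 with the mouse as a block). The untreated populations differed by −1.08 ± 0.14 (adjusted p = 0.00298), and those of treated mice by 0.13, with an interval of −0.19 to 0.45. Both the vismodegib effect in Lgr5-positive cells and the untreated population difference were called in all 20 alternatives. Srm, which makes spermidine, had 9.74 and 9.72 in vismodegib Lgr5-positive cells, against 8.95 and 9.37 in untreated Lgr5-positive cells, and its change of 0.57 missed the threshold (adjusted p = 0.0524). Sms, which makes spermine and is not on the list, had 8.87 and 8.64 in vismodegib Lgr5-positive cells, against 10.80 and 10.47 in untreated Lgr5-positive cells, a change of −1.88 ± 0.20 (adjusted p = 0.00136). Odc1 and Sms thus ran in opposite directions in Lgr5-positive cells.

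**Figure D3:**
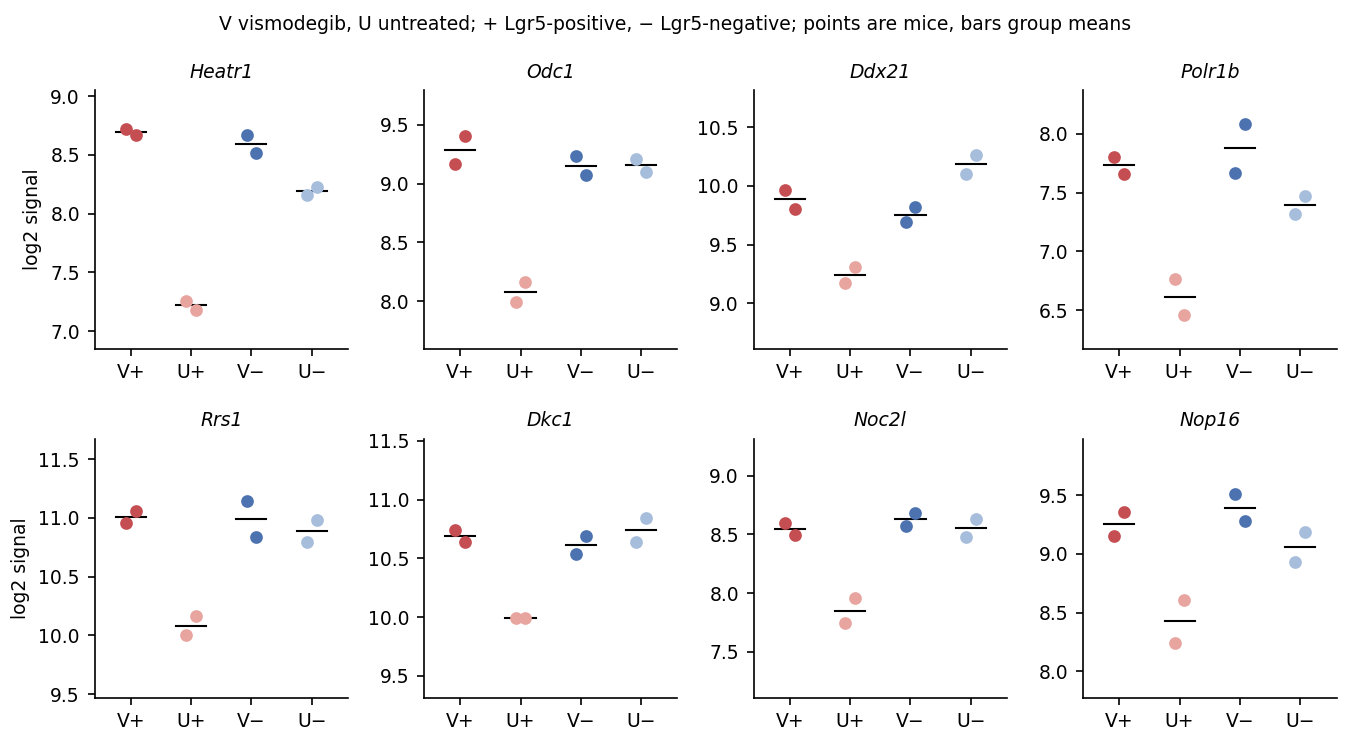
Log2 signal of 8 genes of the list in each mouse, with V for vismodegib, U for untreated, + for Lgr5-positive and − for Lgr5-negative cells, and bars for means of 2 mice. The 8 are among the 9 genes called both with vismodegib in Lgr5-positive cells and between untreated populations. In each panel both untreated Lgr5-positive points lie below the other 6, for Odc1 at 7.99 and 8.17 against 9.07 to 9.40. Nip7, also called in both but not drawn, lacks this pattern, so the panels are a selection.

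The other probe sets of these genes were compared, since 19 of the 33 have more than 1 on the array. Of 22 other probe sets, 20 had the same sign as the one used for vismodegib in Lgr5-positive cells and 19 for the untreated populations. For the populations of treated mice, where the values were near 0, 11 did. A second probe set of Npm1 gave −0.86 for the untreated populations and was called, where the one used gave −0.20, and a second one of Polr1c gave −0.54. Lower values for vismodegib in Lgr5-positive cells came from the other probe sets of Bysl (0.47) and Nip7 (0.30), neither of them called. One of Nolc1 gave 0.65 for vismodegib in Lgr5-negative cells and was called (adjusted p = 0.0379), where the one used gave −0.01.

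Other genes of ribosome assembly, which are not on the list, were counted in the same way. Of all genes tested, 6.37% were called higher and 4.51% lower with vismodegib in Lgr5-positive cells. Between untreated populations 10.9% were called lower in Lgr5-positive cells. Of 28 other small subunit factors, 3 were called higher with vismodegib in Lgr5-positive cells (Utp4, Nol6 and Utp15) and 10 lower in untreated Lgr5-positive than Lgr5-negative cells, with medians of 0.32 and −0.50. Of 35 other large subunit factors, 4 were called higher with vismodegib in Lgr5-positive cells (Noc3l, Rrp12, Ddx27 and Eif6) and 10 lower in the untreated comparison, with medians of 0.30 and −0.32. Noc3l had the largest change of these, 1.57 ± 0.23 (adjusted p = 0.00603), with 8.79 and 8.54 in vismodegib Lgr5-positive cells, against 7.47 and 6.72 in untreated Lgr5-positive cells. Neither list had a gene called by limma in Lgr5-negative cells, where 7 and 5 genes had an unadjusted p under 0.05, or between the populations of treated mice, where 2 and 1 did. Of 10 other RNA polymerase I subunits and factors, Twistnb and Rrn3 were called higher and Znrd1 lower with vismodegib in Lgr5-positive cells, and Rrn3, which recruits the polymerase to the ribosomal genes, was also called lower in untreated Lgr5-positive cells (−0.64, adjusted p = 0.00954).

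Ribosomal proteins, the parts that these factors assemble, had no called change. Of 37 tested, 0 were called by limma in any of the 5 comparisons, and at an unadjusted p under 0.05 there were at most 2, between untreated populations, with medians of 0.006 for vismodegib in Lgr5-positive cells and −0.001 for untreated populations. Their mean log2 signal was 11.65 and 11.72 in vismodegib Lgr5-positive cells, against 11.60 and 11.82 in untreated Lgr5-positive cells, with overlap. The 3' control probe set of the small subunit RNA itself, the 18S, read between 13.30 and 13.41 on all arrays, near the top of the scale, and the middle and 5' sets read between 13.08 and 13.26 and between 11.997 and 12.576.

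That the listed genes are Myc targets is background from other work, and Myc activity was not measured here. Of 30 other known Myc targets tested, 5 were called higher and 0 lower with vismodegib in Lgr5-positive cells, against 6.37% and 4.51% of all genes. In untreated Lgr5-positive cells 1 was called higher and 10 lower than in Lgr5-negative cells, against 6.21% and 10.9%. The medians were 0.23 and −0.36 in this order. Phb, a mitochondrial protein, differed in its vismodegib effect between the populations by 1.23 ± 0.22 (adjusted p = 0.0475). Myc itself had log2 signals of 11.06 and 11.26 in vismodegib Lgr5-positive cells, against 9.83 and 10.70 in untreated Lgr5-positive cells. In Lgr5-negative cells it had 11.21 and 11.16 with vismodegib, against 10.00 and 10.13 without. It was higher on all 4 vismodegib arrays than on all 4 untreated ones, yet missed the threshold in both populations, with 0.89 ± 0.25 (adjusted p = 0.0672) and 1.12 ± 0.25 (adjusted p = 0.0623). Between untreated populations Myc differed by 0.20 (adjusted p = 0.626), with overlapping arrays. Whether the Myc level followed the order of the list was not tested.

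Mycn, a Myc relative that Hedgehog signalling induces in several tissues, ran opposite to the list in Lgr5-positive cells. It had 7.63 and 7.79 in vismodegib Lgr5-positive cells, against 8.98 and 9.32 in untreated Lgr5-positive cells, a change of −1.44 ± 0.14 (adjusted p = 0.00114). In Lgr5-negative cells it had 7.31 and 7.42 with vismodegib, against 8.01 and 7.94 without, a change of −0.61 (adjusted p = 0.0669). Untreated Lgr5-positive cells thus had the highest Mycn and the lowest ribosome biogenesis levels. Mycl had 7.70 and 8.15 in vismodegib Lgr5-positive cells, against 5.90 and 6.74 in untreated Lgr5-positive cells, a change of 1.60 ± 0.29 (adjusted p = 0.0141). Its Lgr5-negative arrays lay between 7.75 and 8.18.

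Cell cycle genes were counted as another group tied to growth. Of 30 tested, 24 were called lower in untreated Lgr5-positive than Lgr5-negative cells, with a median of −1.30, against 10.9% of all genes. With vismodegib in Lgr5-positive cells 1 was called higher (Tyms) and 1 lower (Cdca3), against 6.37% and 4.51% of all genes, with a median of −0.12. Their mean log2 signal was 7.41 and 7.44 in vismodegib Lgr5-positive cells, against 7.38 and 7.68 in untreated Lgr5-positive cells, with overlap. It was 8.36 and 7.98 in vismodegib Lgr5-negative cells, against 8.58 and 8.88 in untreated Lgr5-negative cells. In Lgr5-negative cells all 30 cell cycle genes were below 0 with vismodegib, with a median of −0.48. There 3 were called lower, against 2.06% of all genes. For the difference between the vismodegib effects their median was 0.45, with 26 of 30 above 0. That of the 33 genes was 0.385, with 30 above 0. Between Lgr5-positive and Lgr5-negative cells of treated mice, the median log2 fold change was −0.04 for the 33 genes and −0.81 for the cell cycle genes. Of the cell cycle genes 29 were below 0 there and 1 was called lower, against 0.132% of all genes. The contrast between the lists was not tested.

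**Figure D4:**
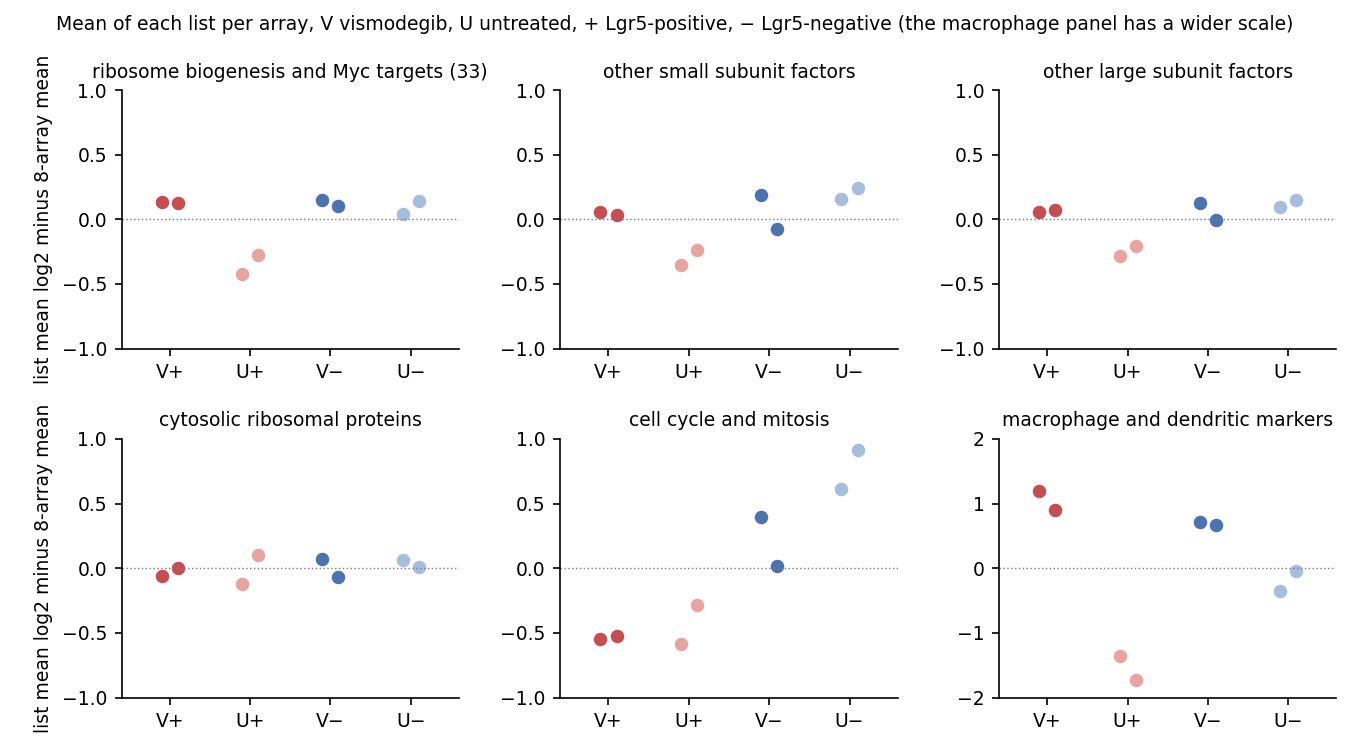
Mean log2 signal of each gene list per array, minus its mean over 8 arrays, with V for vismodegib, U for untreated, + for Lgr5-positive and − for Lgr5-negative cells. The 33 genes and other assembly factors are low in untreated Lgr5-positive cells, ribosomal protein arrays overlap between the groups, cell cycle genes are low in both Lgr5-positive groups, and macrophage and dendritic markers, on a wider scale, are lowest in untreated Lgr5-positive cells.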

How the data were processed

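RNA from sorted cells was amplified as cDNA and hybridised to Affymetrix mouse arrays, per the labels' protocols. The authors deposited log2 signals from RMA, per the submitters' processing notes, which give no version. RMA corrects background, sets all arrays to the same distribution and summarises probe sets, so a shift of all RNA would not be seen. Minima were 3.09 to 3.17, medians 6.13 to 6.20 and maxima 13.3 to 13.4. Control 3' minus 5' differences were −0.23 to 0.01 for Gapdh and −0.58 to −0.34 for actin. Precision is limited by how few arrays there are.

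Of 45141 probe sets, 28898 mapped to 1 symbol, 551 to several, 15588 to none and 104 were controls. The probe set of highest mean stood for each of 17097 genes. Genes above 4.85, the 25th percentile, in at least 2 arrays were tested (14403, with 2694 set aside). Two-sided tests came from lmFit and eBayes of limma 3.58.1 (R 4.3.3), on 1 model with a mean per group. It had 4 residual degrees of freedom, to which eBayes added 3.53. The procedure was tested on simulated data of these 14403 genes: for vismodegib in Lgr5-positive cells it recovered 54% of 2-fold changes and 14% of changes of 0.5 log2. In the simulation only 50 genes changed at each size, and arrays were drawn without pairing by mouse. In the data 917 genes were called higher and 649 lower in this comparison. The adjusted p depends on how many genes change, so these shares are not the recovery rates in the data.

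The members, the other lists and the tests were chosen with earlier results of these data known. Any measured member may be named. Of each other list, a rule took up to 4 called genes with the largest change per comparison, or the 2 with the lowest p where none was called, besides Myc, Mycn, Lgr5, Lrig1, Gli1 and Ptch1. Krt5, Krt14 and Trp63 are named as well-known markers. The T cell, endothelial and melanocyte marker lists, of 8 to 10 tested genes, had at most 2 called genes in a direction in any comparison. With vismodegib in Lgr5-positive cells 2 of 8 melanocyte markers were called higher, against 6.37% of all genes, with a median of −0.08. Between untreated populations 2 of 10 T cell markers were called lower in Lgr5-positive cells, against 10.9%, with a median of −0.06. The part of these markers in the results was not tested.

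A mouse gave both of its populations, so the mouse number pairs arrays within a treatment. After group means were removed, such paired arrays were correlated over genes at 0.142 (untreated) and 0.211 (vismodegib). Across treatments the number joins different mice. Promoters came from RefSeq (GRCm38.p6).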

Additional observations from a re-analysis of the deposited data

Results flagged for a closer look

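The effect of vismodegib differed between Lgr5-positive and Lgr5-negative cells for 3 genes by a test of the difference itself. On the log2 scale and in the order Lgr5-positive minus Lgr5-negative effect, the difference was 1.07 for Heatr1, 1.08 for Ddx21 and 1.21 for Odc1 (adjusted p of 0.0305, 0.0401 and 0.0362 in limma). Each mouse gave both populations, and with the mouse as a block the adjusted p was 0.0438 for Heatr1, 0.0514 for Ddx21 and 0.0536 for Odc1, so that 1 call was left. With each array left out in turn, none of the 3 kept the call every time. Heatr1 was higher with vismodegib on both arrays of each population. Odc1 was higher in Lgr5-positive cells, with overlapping groups in Lgr5-negative cells, and Ddx21 was higher in both Lgr5-positive and lower in both Lgr5-negative vismodegib arrays on the probe set used. The other probe set of Ddx21 gave 0.23 in Lgr5-negative cells and a difference of 0.68 (adjusted p = 0.218), and other probe sets of Heatr1 gave differences of 0.31 and 1.15 (adjusted p of 0.438 and 0.166), none of them called by limma. Macrophage and dendritic markers differed between the effects in the same direction, with 5 of 20 called, against 0.993% of all genes. Their part in these differences was not tested.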

How the results depend on the processing

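With 2 mice a group, small changes were often not detectable. The alternatives were no filter, a filter at the median, every probe set, the mean of probe sets, probe sets free of related transcripts (chosen after seeing the data), cyclic loess, an intensity trend, array weights, only the 4 arrays compared, a change of at least 2-fold, the mouse, the mouse number or a random mouse as a block, and leaving out each array. Of 3257 single-gene values, 3097 kept their side of the threshold, 137 lost a call, 23 gained one and 0 reversed. For the fit of every probe set, this tally reads only the probe set used for each gene. Disagreements of other probe sets, such as those of Nolc1 and Ddx21 in Lgr5-negative cells, are therefore not in it. Most of the 3257 belong to genes not called at first, which had no call to lose. For vismodegib in Lgr5-positive cells, Heatr1 and Odc1 lost their call in 0 of 20 alternatives and Nolc1 in 11. Between untreated populations, Odc1 lost it in 0 of 20, Nop16 in 11 of 20 and Gar1 in 11 of 19.

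The cause of the following moves was not tested, beyond the fewer arrays or stricter rule that some settings use. For vismodegib in Lgr5-positive cells, the calls on the list went to 8 with only the 4 arrays compared and to 3 at 2-fold, where all genes gave 739, against 1566. With an array left out they ranged from 2 to 14, the median from 0.32 to 0.54 and all genes from 543 to 1823. The mouse number as a block left 10 calls, without Nop58, Nolc1 and Nip7. For vismodegib in Lgr5-negative cells, the calls on the list were 1 with every probe set and 0 to 1 with an array left out. All genes gave 234 with only the 4 arrays compared, 262 at 2-fold and 65 to 523 with an array left out, against 478. Between untreated populations, the list gave 1 call at 2-fold (all genes 960, against 2466), 11 with the mouse as a replicate block and 3 to 14 with an array left out, with a median of −0.48 to −0.36 and 582 to 2852 of all genes. Between populations of treated mice, all genes gave 36 without a filter, 11 with only the 4 arrays compared, 105 with the mouse as a block and 18 to 107 with an array left out, against 68. For the difference between effects, the median of the list was 0.28 with cyclic loess and 0.30 to 0.44 with an array left out. Its calls were 1 with the mouse as a block (Heatr1) and 0 to 2 with an array left out, with 2 to 251 of all genes, against 202.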

Other observations

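Genes around the listed ones moved in ways not described so far. Sat1, which starts polyamine breakdown, had log2 signals of 9.09 and 9.50 in untreated Lgr5-positive cells, against 10.72 and 10.72 in untreated Lgr5-negative cells, a difference of −1.43 ± 0.17 (adjusted p = 0.00267 in limma). Oaz2, an antizyme that restrains ornithine decarboxylase, had 6.82 and 6.46 in vismodegib Lgr5-positive cells, against 7.36 and 7.52 in untreated Lgr5-positive cells, a change of −0.80 ± 0.18 (adjusted p = 0.0324). With vismodegib in Lgr5-positive cells, Odc1 was thus higher and Oaz2 lower, in these arrays. Mga, which competes with Myc for their shared partner Max, was called higher with vismodegib in Lgr5-negative cells (1.15 ± 0.21, adjusted p = 0.0362), with a log2 fold change of 0.60 in Lgr5-positive cells (adjusted p = 0.122).

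Of the Myc-opposing Mxd genes, Mxd1 and Mxd3 were lower in untreated Lgr5-positive than Lgr5-negative cells, by −0.61 (adjusted p = 0.0445) and −0.46 (adjusted p = 0.0387). Eif6, which keeps large subunits apart from small ones until they mature, had 10.73 and 10.68 in vismodegib Lgr5-positive cells, against 9.93 and 10.26 in untreated Lgr5-positive cells (0.61 ± 0.14, adjusted p = 0.0296). Kif11, a mitotic motor, was the only cell cycle gene of 30 called between the populations of treated mice, at −1.34 ± 0.20 (adjusted p = 0.0475). Of all genes 0.132% were called lower there. The other cell cycle genes mostly ran the same way, with 29 of 30 below 0 and a median of −0.81. At an unadjusted p under 0.05 in limma there were 22.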
